A study of Mus musculus with 4 samples.

Results

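The mRNAs examined were those of 8 genes for actins and actin-like proteins, Actb, Actg1, Actl7a, Actl7b, Actl9, Actl6a, Actr2 and Actr3, among 18068 annotated genes that held at least 1 read cluster of an IGF2BP3 eCLIP-seq experiment. A cluster was given to a gene when its centre lay inside the gene span of GENCODE M21 on the strand of the gene, in mm10 coordinates. By this rule the genes held 125 of 337234 clusters in replicate 1 and 92 of 216354 clusters in replicate 2. The experiment used whole testes of wild type C57BL/6 mice at 8 weeks of age, which the labels describe as germ cells and somatic cells. The cells were crosslinked with UV light, their RNA was cut with RNase A, and IGF2BP3 was pulled down with an antibody to give the IP libraries. A small part of the lysate kept before the pull-down gave the SMInput libraries, which had no antibody and served as the background. There were 4 samples, 2 IP and 2 SMInput, and each IP was set against the SMInput of its own replicate. The study calls these biological replicates, and neither it nor the labels say whether they came from different animals, so differences between them measure the spread between these samples. The values of each cluster were the log2(fold change) of IP over SMInput, scaled to the reads of each library, and the −log10(P value) of that comparison. Replicate 1 rested on 5133438 IP and 8706391 SMInput reads, and replicate 2 on 4637612 IP and 16696122 SMInput reads, as recovered from the listed values.

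Actin monomers assemble into filaments that carry cell shape, adhesion and transport. β-actin (Actb) and γ-actin (Actg1) are the cytoplasmic actins of nearly all cells, Actr2 and Actr3 encode the actin-related subunits of the Arp2/3 complex that starts filament branches, and Actl6a encodes a nuclear actin-like subunit of chromatin remodelers. Actl7a, Actl7b and Actl9 are actin-like genes of spermatids, whose proteins lie in the perinuclear theca and the region below the acrosome. IGF2BP3 belongs to the family of IGF2BP1, which is known to bind the zipcode of the Actb 3′UTR in other cells.

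Few clusters of these genes passed the thresholds used for bound clusters, a log2(fold change) and a −log10(P value) that both reach 2. In replicate 1, 4 of the 125 clusters passed (3.2%), against 4.92% of all clusters. In replicate 2, 6 of the 92 clusters passed (6.52%), against 13.2% of all clusters. The median log2(fold change) of the clusters of these genes was 1.07 in replicate 1 and 1.26 in replicate 2, and over all clusters it was 1.50 and 1.53. By region, the medians were 0.72 and 0.87 in the CDS, against 0.76 and 0.93 of all CDS clusters. In introns they were 2.08 and 2.01, against 2.08 and 1.85. In 3′UTRs they were 1.21 and 1.56, against 1.76 and 1.85. At any fold, 21 clusters in replicate 1 (16.8%) and 30 in replicate 2 (32.6%) reached a −log10(P value) of 2, against 7.45% and 18.8% of all clusters. Of these, 12 and 14 were in Actb, and the other 7 genes had 9 of 102 (8.82%) in replicate 1 and 16 of 74 (21.6%) in replicate 2. A passing cluster was present in 4 genes in each replicate, and in 5 genes over both. This compares with 35.5% of all genes with a cluster in replicate 1 and 57.0% in replicate 2. Actl7a, Actl6a and Actr2 had a passing cluster in both replicates, 3 of 8 genes, against 35.2% of the genes with a cluster in both. Actr2 lost this call, which left 2 genes, in exons alone or with at least 10 IP reads in a cluster. The count was also 2 when each cluster went to the gene that starts closest to it, whatever the strand. With both thresholds at 3 the count was 0, so no gene kept the call. The shares of all genes under these settings are not given. With both thresholds at 2, passing clusters of the replicates overlapped only at the 3′ end of Actl6a. This was 1 of 8 genes, against 15.1% of the genes with a cluster in both. Actb, Actg1 and Actl7b had no passing cluster in either replicate. With the fold threshold lowered to a log2(fold change) of 1, Actb had 8 in each replicate, Actl7b had 2 in each, and Actg1 had 0 in replicate 1 and 1 in replicate 2. At that threshold 7.24% of all clusters passed in replicate 1 and 18.4% in replicate 2. It gave 7 of 8 genes a passing cluster in replicate 2, against 61.3% of all genes with a cluster there, and 5 of 8 in both replicates, against 40.8%.

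**Figure D1:**
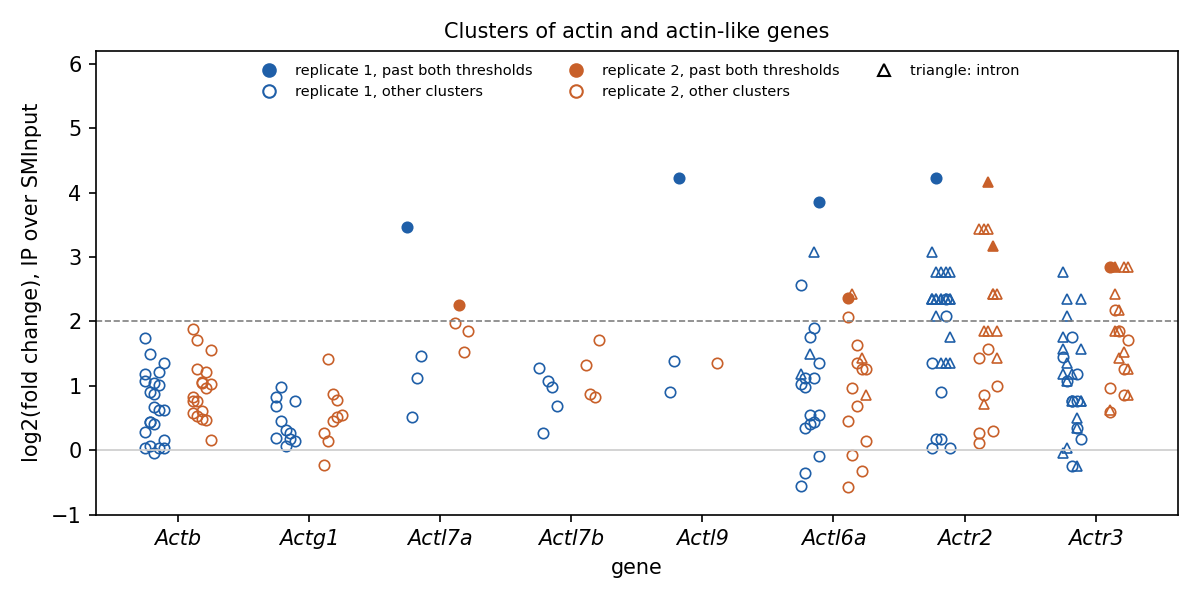
Log2(fold change) of IP over SMInput for each of the 125 clusters of replicate 1 and the 92 clusters of replicate 2, by gene, with circles for clusters in exons, triangles for introns, and filled symbols for clusters past both thresholds. The dashed line marks a log2(fold change) of 2, which no cluster of Actb, Actg1 or Actl7b reached.

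Actb held the most reads, with 23 clusters in replicate 1 and 18 in replicate 2 that covered 52.7% and 48.4% of its mRNA. Its clusters were supported by a median of at least 65 IP and 84 SMInput reads in replicate 1, and of 62 and 156 in replicate 2. Testis is a mixture of cell types, so many reads from many cells and much RNA per cell cannot be told apart here. Of its clusters, 12 in replicate 1 and 14 in replicate 2 reached a −log10(P value) of 2, yet the highest log2(fold change) was 1.75 and 1.89. By the medians of 3 stretches, the fold was lowest at the 5′ end and highest in the 3′UTR. Clusters of the 5′UTR and of exons 2 to 3 had a median log2(fold change) of 0.05 in replicate 1 and 0.51 in replicate 2. Those of exons 4 to 5 had a median of 0.77 in replicate 1 and lay between 0.76 and 1.26 in replicate 2. Those of the 3′UTR had medians of 1.21 and 1.39. The order of the stretches by median was the same in both replicates, and their ranges overlapped. The order did not hold cluster by cluster, since the first cluster after the stop codon lay below every cluster of exons 4 to 5 in both replicates.

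The last cluster of the Actb 3′UTR was the most enriched in both replicates. At chr5:142903142-142903225, with its centre 69 bases from the end of the mRNA, replicate 1 had 169 IP and 85 SMInput reads, a log2(fold change) of 1.75 (95% interval 1.37 to 2.15) and a −log10(P value) of 21.3. At chr5:142903151-142903226, replicate 2 had 163 IP and 158 SMInput reads, a log2(fold change) of 1.89 (1.57 to 2.22) and a −log10(P value) of 35.4. Both intervals, which cover counting error only, included the fold threshold of 2. Only 0.281% of all clusters in replicate 1 and 0.431% in replicate 2 had a −log10(P value) at least as high. Of those, 11.6% and 8.91% also had a log2(fold change) below 2. The neighbouring cluster upstream, at chr5:142903226-142903288 in replicate 1 and chr5:142903227-142903297 in replicate 2, had values of 1.49 (1.14 to 1.86) and 1.71 (1.41 to 2.00). The cluster with the most SMInput reads, 232 and 393, lay closer to the stop codon at chr5:142903567-142903665 in replicate 1 and chr5:142903564-142903663 in replicate 2. Its log2(fold change) was 0.16 (−0.14 to 0.46) with a −log10(P value) of 0.514 in replicate 1, and 0.58 (0.31 to 0.85) with a −log10(P value) of 4.73 in replicate 2. These intervals lay apart from those of the last cluster in both replicates. The clusters compared were picked for the highest fold and the most SMInput reads, so the distance between them is a description. The mRNA strand at the centre of the most enriched cluster of each replicate read as follows, in lower case, as none of the letters searched below lay in it.
Actb, replicate 1, chr5:142903169-142903198, minus strand: ggggttgaggtgttgaggcagccagggctg
Actb, replicate 2, chr5:142903174-142903203, minus strand: gggagggggttgaggtgttgaggcagccag

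**Figure D2:**
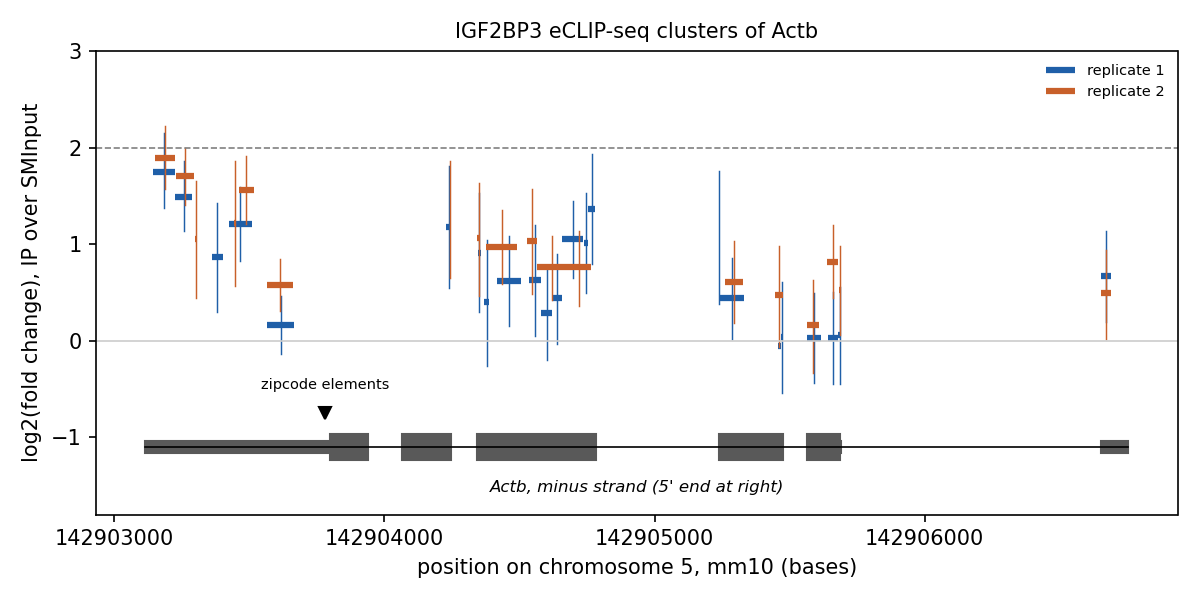
Clusters of Actb on chromosome 5, each drawn as a horizontal bar at its log2(fold change) of IP over SMInput, with its 95% Clopper-Pearson interval as a vertical line where the reads were recovered, above the gene model (thick boxes CDS, thin boxes UTRs). The highest values, 1.75 in replicate 1 and 1.89 in replicate 2, lie at the 3′ end, below the dashed line at 2, and no cluster lies over the zipcode elements marked by the triangle.

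The zipcode of Actb is known as a pair of short elements bound by IGF2BP1, CGGACT and ACACCC. In the Actb mRNA, CGGACT occurred 1 time, from base 2 after the stop codon, and ACACCC followed 18 bases further on, with 2 more copies of ACACCC in the 5′UTR and the CDS. In the Actg1 mRNA neither was found. The whole element of 30 bases lay at chr5:142903767-142903796 in the 3′UTR, and is given 5′ to 3′ on the mRNA strand with both elements in capitals.
Actb zipcode, minus strand: CGGACTgttactgagctgcgttttACACCC
No cluster of either replicate covered it. The nearest one began 102 bases downstream in replicate 1 and 104 bases downstream in replicate 2, and was the cluster with the most SMInput reads. The stretch without a cluster reached over 437 bases of mRNA in replicate 1 and 453 in replicate 2, of which 305 and 319 were CDS and 132 and 134 were 3′UTR. Since the tables list clusters and not all positions, the number of reads over the zipcode is unknown. Words of 31 bases were used to see where reads could match elsewhere, and 50.1% of those centred in the stretch in replicate 1 and 51.9% in replicate 2 had an exact copy outside Actb, against 39.8% over the whole mRNA. Of the 60 words that touched the zipcode itself, 25 had such a copy. Whether such copies kept reads from being counted there was not tested. The study cloned an Actb 3′UTR reporter that served as its negative control, with Actb named as a non-target of IGF2BP3. The gene-matching ends of the primer pair enclosed a stretch of 684 bases, chr5:142903115-142903798. This stretch reached from the last base of the stop codon to the end of the mRNA. All 5 clusters of the 3′UTR in replicate 1 and all 6 in replicate 2, as well as the zipcode elements, lay inside it.

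Actg1, whose protein is nearly identical to that of Actb, had fewer and less enriched clusters, 11 in replicate 1 and 9 in replicate 2. None passed, and 0 and 1 reached a −log10(P value) of 2. The median log2(fold change) was 0.32 in replicate 1 and 0.51 in replicate 2. The highest value of replicate 1 was 0.98 (0.01 to 1.98) at chr11:120346637-120346656, with 21 IP and 18 SMInput reads. The highest value of replicate 2 was 1.42 (0.57 to 2.24) at chr11:120346786-120346802, with 23 and 31 reads, where the overlapping cluster of replicate 1 was at 0.07. The cluster with the most SMInput reads was the one of the 5′UTR in both replicates. At chr11:120348425-120348487, replicate 1 had 64 IP and 95 SMInput reads and a log2(fold change) of 0.19 (−0.29 to 0.66). At chr11:120348425-120348489, replicate 2 had 67 and 169 reads and a value of 0.51 (0.08 to 0.93). Of the 700 bases of the Actg1 3′UTR, 0 lay in a cluster in either replicate, whereas clusters covered 54.2% and 47.1% of the Actb 3′UTR.

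The coding sequences of Actb and Actg1, each 1128 bases with the stop codon, were identical at 1000 positions (88.7%), with a longest identical run of 62 bases. Clusters covered 596 coding bases of Actb and 386 of Actg1 in replicate 1, and 226 positions were covered in both genes. In replicate 2 the numbers were 564, 237 and 143. Of the clustered coding positions of Actg1, 58.5% and 60.3% also lay in Actb clusters. This is near the share of all coding positions that lay in Actb clusters, 52.8% in replicate 1 and 50% in replicate 2. Of the Actg1 mRNA, 97.6% of the 31-base words had an exact copy elsewhere in the genome, including 1128 of 1128 in the CDS and 685 of 685 in the 3′UTR. A processed pseudogene on chromosome 4, Gm12715 at chr4:103563325-103565229, held 92.4% of the words, and it had 1 cluster in each replicate, at a log2(fold change) of 0.22 and 0.59. Another, Gm8399 on chromosome 13, held 77.4% of the words and had 2 clusters in replicate 1 and 1 in replicate 2. Reads of Actg1 thus share most of their sequence with other loci, and the effect of this on its clusters was not tested. The processed pseudogene Gm15725 on chromosome 16, within Lrrc58, held 22.7% of the Actb words and had 3 clusters in replicate 1 and 7 in replicate 2. Of these, 0 and 2 passed.

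Actl7a and Actl7b are intronless genes that lie 1969 bases apart on chromosome 4 and are read in opposite directions, away from each other. Neither had an exact copy of a 31-base word elsewhere in the genome, and shorter or inexact matches were not searched. Actl7a had 4 clusters in each replicate, all in its CDS. In replicate 1, the cluster at chr4:56743707-56743793 passed with 26 IP and 4 SMInput reads, a log2(fold change) of 3.46 (1.94 to 5.44) and a −log10(P value) of 7.53. It overlapped a cluster of replicate 2 at chr4:56743729-56743776, with 12 and 11 reads, a log2(fold change) of 1.97 (0.67 to 3.30) and a −log10(P value) of 2.88, which missed the fold threshold narrowly. Both intervals lay above 0 and both included the fold threshold of 2, so the site was enriched in both replicates and passed in 1 of them. The passing cluster of replicate 2 lay elsewhere in the CDS, at chr4:56744411-56744443, with 12 and 9 reads and a log2(fold change) of 2.26 (0.89 to 3.69), and had no counterpart in replicate 1. The cluster with the most SMInput reads in replicate 1, at chr4:56744055-56744085, had 11 and 13 reads and a log2(fold change) of 0.52 (−0.78 to 1.80). A further site, at chr4:56744592-56744636 in replicate 1 and chr4:56744582-56744602 in replicate 2, had values of 1.46 (0.08 to 2.94) and 1.85 (0.43 to 3.27).

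**Figure D3:**
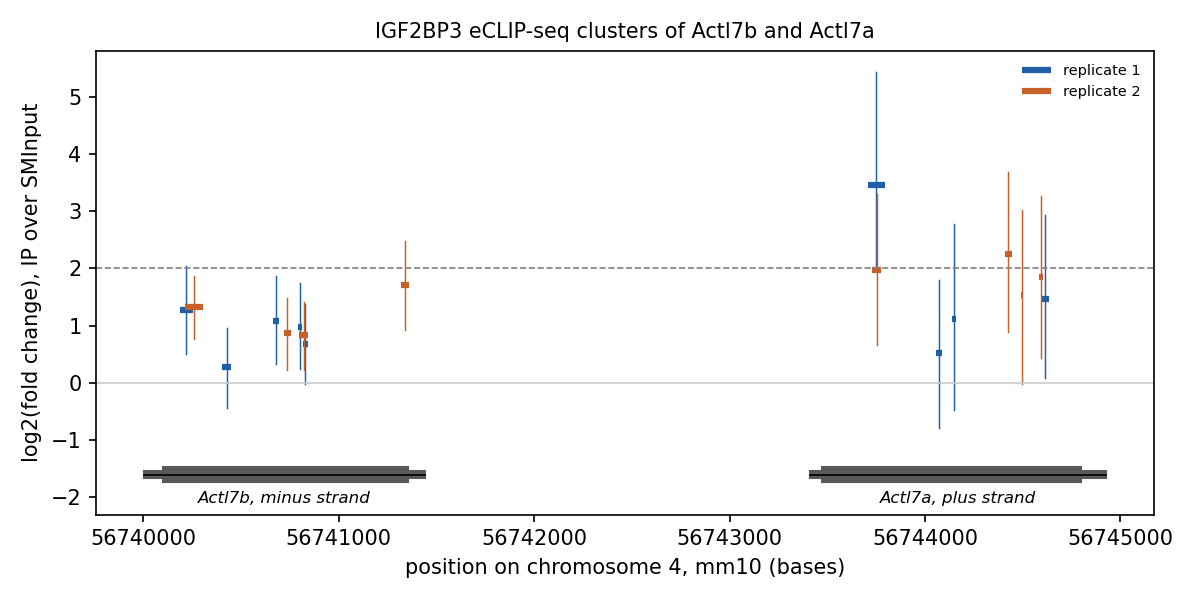
Clusters of Actl7b and Actl7a on chromosome 4, each drawn as a horizontal bar at its log2(fold change) of IP over SMInput, with its 95% Clopper-Pearson interval as a vertical line, above both intronless gene models (thick boxes CDS, thin boxes UTRs). Clusters of Actl7b lie between 0.27 and 1.71, and those of Actl7a reach 3.46 in replicate 1 and 2.26 in replicate 2.

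Actl7b had more reads than its neighbour and a lower median log2(fold change), at 0.98 in replicate 1 and 1.09 in replicate 2 against 1.29 and 1.91 for Actl7a. Its 5 clusters of replicate 1 ranged from 0.27 to 1.27 in log2(fold change) and its 4 clusters of replicate 2 from 0.83 to 1.71. Of these, 3 and 4 reached a −log10(P value) of 2, and none passed the fold threshold. The highest of replicate 1 lay near the end of the CDS, at chr4:56740188-56740254, with 37 IP and 26 SMInput reads and a log2(fold change) of 1.27 (0.51 to 2.05). It overlapped a cluster of replicate 2 at chr4:56740215-56740306, with 50 and 72 reads and a value of 1.32 (0.77 to 1.86), with overlapping intervals above 0 in both. The highest of replicate 2, at chr4:56741317-56741362 by the start codon, had 29 and 32 reads and a value of 1.71 (0.93 to 2.48), and no cluster of replicate 1 overlapped it. The clusters with the most SMInput reads had 32 IP and 45 SMInput reads and a value of 0.27 (−0.43 to 0.96) in replicate 1, at chr4:56740404-56740449, and 38 and 77 reads and a value of 0.83 (0.23 to 1.41) in replicate 2, at chr4:56740796-56740845.

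Actl9, also intronless and with no 31-base word elsewhere, had 3 clusters in replicate 1 and 1 in replicate 2, all in the CDS and none overlapping between the replicates. The passing cluster of replicate 1, at chr17:33434124-33434151, rested on 11 IP reads and 1 SMInput read, with a log2(fold change) of 4.22 and a wide interval of 1.44 to 9.65. A second cluster, at chr17:33433638-33433699, had 20 and 13 reads, a log2(fold change) of 1.38 (0.30 to 2.51) and a −log10(P value) of 2.05. The cluster of replicate 2, at chr17:33433866-33433914, had 12 and 17 reads and a log2(fold change) of 1.35 (0.15 to 2.50). All clusters of the 3 spermatid genes were thus centred in their coding sequences, with passing ones in Actl7a in both replicates and in Actl9 in replicate 1 alone, and 0 of their 3′UTR bases, which are short at 128, 95 and 53, lay in clusters.

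Actl6a carried the site that passed in both replicates, in the last exon of the gene and within its 3′UTR of 371 bases. In replicate 1, the cluster at chr3:32726808-32726903 had 17 IP and 2 SMInput reads, a log2(fold change) of 3.85 (1.77 to 7.01) and a −log10(P value) of 5.46. In replicate 2, the cluster at chr3:32726816-32726914 had 20 and 14 reads, a log2(fold change) of 2.36 (1.30 to 3.46) and a −log10(P value) of 6.32. The centres lay 254 and 263 bases after the stop codon. The adjoining cluster on the side of the stop codon, at chr3:32726684-32726807 in replicate 1 and chr3:32726712-32726796 in replicate 2, had values of 1.90 (0.76 to 3.14) and 1.26 (0.17 to 2.31). The 15 clusters of the 5′UTR and CDS in replicate 1 and the 11 in replicate 2 had medians of 0.54 and 0.68, and none of them passed. They included high folds on few reads, up to 2.57 (0.18 to 5.87) with 7 and 2 reads in replicate 1 and 2.07 (0.27 to 3.92) with 7 and 6 reads in replicate 2. In replicate 2 the CDS cluster at chr3:32712099-32712253 reached a −log10(P value) of 2.15 at a log2(fold change) of 1.36 (0.30 to 2.39), where the overlapping cluster of replicate 1 was at −0.09 with a −log10(P value) of 0. An overlapping pair in intron 11 had values of 3.08 (−0.08 to 8.65) with 5 IP reads and 1 SMInput read in replicate 1, and 2.43 (−0.69 to 6.01) with 3 and 2 reads in replicate 2. The 3′UTR thus held the passing clusters of Actl6a, and high folds that did not pass also lay elsewhere in the gene. The 3′UTR was also the region of all clusters in which passing was most frequent, at 19.4% in replicate 1 and 34.5% in replicate 2. The sequence at the centre of the site in replicate 1 was as follows.
Actl6a, chr3:32726841-32726870, plus strand: gctttcagtaagtactctccagctctcctg

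Actr2 and Actr3 are long genes, and most of their clusters lay in introns and held few reads. Of the 30 clusters of Actr2 in replicate 1 and the 20 in replicate 2, 21 and 13 were intronic, and of these 20 and 13 held 5 or fewer IP reads. Their median log2(fold change) was 2.35 and 2.43, against 0.91 and 0.85 for the clusters in exons, and over all intron clusters of the tables it was 2.08 and 1.85. The clusters in exons held few reads as well, with a median of 5 IP reads in replicate 1 and 3 in replicate 2, against 3 in the introns in both. At 1 SMInput read a cluster passed with 7 IP reads in replicate 1 and with 4 in replicate 2. The passing cluster of Actr2 in replicate 1 was in the CDS of exon 4, at chr11:20091272-20091358, with 11 IP reads and 1 SMInput read and a log2(fold change) of 4.22 (1.44 to 9.65). Both passing clusters of replicate 2 lay side by side in intron 3. At chr11:20093055-20093078 there were 5 IP reads and 1 SMInput read, with a log2(fold change) of 4.17 (1.01 to 9.73). At chr11:20093079-20093156 there were 5 and 2 reads, with a value of 3.17 (0.56 to 6.56). The last of these covered a run of GT repeats.
Actr2, intron 3, chr11:20093103-20093132, minus strand: gtgtgtgtgtgtgtgtgtacacgtgtgtat
The cluster of Actr2 with the most SMInput reads lay in the 3′UTR, at chr11:20064173-20064272 in replicate 1 with 21 and 19 reads and chr11:20064206-20064257 in replicate 2 with 13 and 38 reads. Its log2(fold change) was 0.91 (−0.06 to 1.88) and 0.30 (−0.73 to 1.24), and it was the single pair of Actr2 clusters that overlapped between the replicates.

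Actr3 had 29 clusters in replicate 1 and 20 in replicate 2, with 19 and 12 of them centred in introns, including a cluster of replicate 2 at the 5′ end, chr1:125435498-125435601, that also covered 50 bases of the 5′UTR. None passed in replicate 1, where the highest log2(fold change) was 2.76 (−0.57 to 8.38) for 4 IP reads and 1 SMInput read at chr1:125399523-125399554 in an intron. In replicate 2, a cluster of the 3′UTR at chr1:125393338-125393429 passed with 8 and 4 reads and a log2(fold change) of 2.85 (0.95 to 5.03). A cluster of intron 8 at chr1:125397798-125397848 passed with 6 and 3 reads and a value of 2.85 (0.62 to 5.48). A second 3′UTR site was seen in both replicates and passed in neither, at chr1:125393507-125393565 with a value of 1.44 (−0.35 to 3.40) in replicate 1 and at chr1:125393471-125393540 with 2.17 (−0.05 to 4.50) in replicate 2. The clusters of Actr3 with the most SMInput reads held at least 7 and exactly 12. By the median reads per cluster, Actr2 and Actr3 were the members with the fewest reads, and no passing site of theirs was shared between the replicates. Of their 31-base words, 34.5% in Actr2 and 65.8% in Actr3 had an exact copy elsewhere, most of them in processed pseudogenes that held 0 clusters.

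Across the genes, 54 clusters of replicate 1 overlapped a cluster of replicate 2 by at least 1 base (43.2%, of which 21 in Actb), against 24.9% of all clusters of replicate 1. The absolute difference in log2(fold change) within a pair had a median of 0.40, against 0.60 over all such pairs. Replicate 2 was higher in 33 of the 54 (61.1%), against 58.7% of all pairs. Actb weighs most in both values, with 21 of the 54 pairs, and some clusters of replicate 2 stood in more than 1 pair. The values without Actb are not given, so they do not describe the genes as a group. In the 48 pairs with recovered reads in both, the 95% intervals overlapped in 48 of 48, which does not show that the values were equal.

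Short letters reported for IGF2BP binding were looked for on the mRNA strand in windows of 100 bases around the cluster centres. GGAC, the core of the m6A motif, was in 26.4% of the 125 windows of replicate 1 and 23.9% of the 92 of replicate 2, against 26.2% and 24.0% of all passing clusters and 25.3% and 25.9% of all clusters that did not pass. GAACA was in 8.00% and 12.0%, against 8.89% and 8.38% of all passing clusters and 9.4% and 9.05% of the others. AAACC was in 4.80% and 3.26%, against 8.65% and 8.11% of all passing clusters and 7.63% and 7.11% of the others. ACACA was in 7.2% and 8.7%, against 11.1% and 10.7% of all passing clusters and 10.4% and 9.34% of the others. These shares are descriptions over few windows, which overlap between replicates. Among the passing clusters, those of Actl7a and Actl9 in replicate 1 and that of the Actr3 3′UTR in replicate 2 had GGAC in their windows, and the one of Actl9 also had GAACA. The letters of Actl9 lay beyond the end of its cluster, which is 28 bases wide, and those of the others inside theirs. The stretches of the coding sequences are shown with the letters named in each line in capitals.
Actl7a, GGAC, chr4:56743700-56743729, plus strand: gcagtggttgtGGACctgggcactggcttc
Actl9, GGAC, chr17:33434158-33434187, plus strand: cctacgggaacaatatgaagaaaggGGACc
Actl9, GAACA, chr17:33434153-33434182, plus strand: tgggtcctacggGAACAatatgaagaaagg

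Other actins and actin-related genes were described beside the members. Of 18 such genes, 14 had a cluster in replicate 1 and 12 in replicate 2, and 29 of 193 (15%) and 27 of 137 (19.7%) clusters passed, against 4.92% and 13.2% of all clusters. Of these, 17 and 13 were in Actl11, an intronless testis gene of the actin-like family at chr9:107928469-107932461. There, 17 of 19 clusters passed in replicate 1 and 13 of 14 in replicate 2, all in the CDS. The median log2(fold change) of Actl11 was 3.08 and 3.35. Its overlapping pair with the highest −log10(P value) was at chr9:107929938-107929962 in replicate 1, with 156 IP and 12 SMInput reads and a value of 4.46 (3.62 to 5.45), and at chr9:107929933-107930034 in replicate 2, with 153 and 44 reads and a value of 3.65 (3.15 to 4.16). Acta2, the smooth muscle actin, had 0 of 16 and 1 of 13 clusters that passed, and Acta1, Actc1, Actbl2 and Actrt1 had no cluster.

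Of the 121 clusters of the other Arp2/3 subunits in replicate 1 and 78 in replicate 2, 8 (6.61%) and 7 (8.97%) passed, above the 4.92% of all clusters in replicate 1 and below the 13.2% in replicate 2, and Arpc5 was the 1 gene of 7 with overlapping passing clusters. Its 3′UTR site had values of 2.98 (1.14 to 5.42) in replicate 1 and 3.11 (1.50 to 4.97) in replicate 2. Genes whose products bind actin monomers or filament ends passed in 45 of 353 clusters of replicate 1 (12.7%) and 51 of 234 of replicate 2 (21.8%), against 4.92% and 13.2% of all clusters. A few genes held many of these, with 8 in Pfn2, 8 in Cfl2 and 11 in Cap1 in replicate 1, and 8, 7 and 6 in replicate 2. A passing cluster was present in 9 and 11 of the 18 genes, against 35.5% and 57.0% of all genes with a cluster. In 5 of these 18 genes passing clusters overlapped, against 15.1% of all genes with a cluster in both replicates, and in each the pair with the highest −log10(P value) lay in the 3′UTR. Cfl2, a cofilin that severs filaments, had 2.99 (2.26 to 3.79) and 3.24 (2.62 to 3.90). Cap1, which recharges actin monomers, had 4.08 (2.97 to 5.45) and 2.53 (1.93 to 3.13). Pfn2, a profilin, had 2.11 (1.34 to 2.94) and 2.81 (2.02 to 3.65). Capza1, a subunit of capping protein, had 3.01 and 2.59, and Dstn, another severing factor, had 2.08 and 2.26. Pfn1 and Tmsb10, which bind monomers in most cells, had 0 passing clusters in either replicate.

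Genes of the perinuclear theca and acrosome anchoring, where the spermatid actin-like proteins lie, passed in 35 of 319 clusters of replicate 1 (11%) and 32 of 240 of replicate 2 (13.3%), against 4.92% and 13.2% of all clusters. Overlapping passing clusters were found in 3 of 8 genes, against 15.1% of all genes with a cluster in both replicates. Zpbp had values of 2.76 (2.00 to 3.60) and 3.43 (2.73 to 4.18) in the CDS. Dpy19l2 had 2.24 (1.33 to 3.24) and 2.46 (1.57 to 3.37) in the 3′UTR, and Plcz1 had 3.08 (1.26 to 5.51) and 2.93 (1.71 to 4.25) in the CDS. The chromatin complex partners of Actl6a passed in 27 of 877 clusters of replicate 1 (3.08%) and 38 of 597 of replicate 2 (6.37%), below the share of all clusters in both. Smarca2, an ATPase of the SWI/SNF remodelers, had the pair with the highest −log10(P value), in its 3′UTR, with 2.70 (2.24 to 3.19) and a −log10(P value) of 39.3 in replicate 1, and 3.81 at the highest listed −log10(P value) of 400 in replicate 2. Ep400, Smarcc1 and Ruvbl1 also had an overlapping passing pair in the 3′UTR. This made 4 of 12 genes, against 15.1% of all genes with a cluster in both replicates. The pair of Ruvbl1 rested on 1 SMInput read in each replicate, with 11 IP reads in replicate 1 and 4 in replicate 2. These lists are described by counts and were not tested against each other.

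Markers of the testis were present in the clusters. All 7 germ cell markers had clusters in both replicates. Prm2 had the largest sum of SMInput reads over its clusters, at least 1903 in replicate 1 and 3827 in replicate 2. Such sums also grow with the number of clusters in a gene span, so they do not measure abundance. The 3 Sertoli cell markers summed to at least 854 and 1153 SMInput reads, most of them from Wt1, which had 82 and 65 clusters. The 4 Leydig cell markers summed to at least 2623 and 4206, nearly all from Insl3. Macrophage markers were low, at 31 and 25 reads. The red blood cell markers Hba-a1 and Hbb-bs had 3 clusters in replicate 1, which had at least 441 SMInput reads and a median log2(fold change) of −5.20, and 0 clusters in replicate 2. Their part in the values of the actin genes was not tested.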

How the data were processed

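IGF2BP3 eCLIP-seq of mouse testes comprised 2 IP and 2 SMInput samples. The authors trimmed reads with cutadapt, removed ribosomal RNA reads with Bowtie2, aligned to mm10 with STAR, collapsed duplicates by molecular identifiers and called clusters with Clipper. The deposited −log10 value of a cluster is the authors' P value for IP against SMInput, listed as 0 for clusters with IP below or little above SMInput and as 400 at its strongest. The deposited log2 value is the authors' fold change of IP over SMInput, per library size.

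Reads and library totals were recovered as whole numbers that return both listed values, with 1 solution for 99.9% of clusters between 0 and 400 in each replicate. At 0, the smallest numbers were used, given as "at least". Intervals are 95% Clopper-Pearson intervals and cover counting error only. Regions came from GENCODE M21, sequences from GRCm38.p6 of RefSeq. Python 3.11.15, numpy 2.4.6, scipy 1.17.1 and matplotlib 3.10.9 were used.

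The members and lists were chosen with earlier results of these data known. For each member, clusters passing in both replicates, with the highest fold or with the most SMInput reads were named, and for each list up to 5 genes with overlapping passing clusters. Other clusters and genes were named after seeing their values. Alternatives changed the thresholds, gene assignment, exons, a minimum of 10 IP reads, overlap, annotation and replicates.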

Additional observations from a re-analysis of the deposited data

How the results depend on the processing

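Of 43 values of 7 counts under other settings, 29 stayed within 1.5 times the reported count. With both thresholds at 3, replicate 2 had 0 passing clusters in 0 members, 0 members passed in both replicates, 0 passing clusters overlapped, and 1 passing cluster remained in a 3′UTR, while replicate 1 kept its count of 4. The shares of all clusters and genes at this setting are not given, so these counts cannot be set against the whole. When the fold threshold was lowered to a log2(fold change) of 1, 16 clusters passed in replicate 1 and 22 in replicate 2, against 7.24% and 18.4% of all clusters, 7 members passed in replicate 2 and 5 in both, against 61.3% and 40.8% of genes, and 7 clusters of replicate 1 overlapped a passing one. Actb gave 8 of the 16 and 8 of the 22, and Actl7b and Actg1 also had clusters that passed. In exons alone, 3 clusters passed in replicate 2, as 2 of 15 in 3′UTRs, 1 of 45 in the CDS and 0 of 4 in 5′UTRs. Of all clusters of replicate 2, 34.5%, 7.97% and 8.59% passed in these regions. With at least 10 IP reads, 2 clusters in 2 members passed in replicate 2, and the share of all clusters at this setting is not given. With each replicate alone, the members that passed numbered 4 to 4 and the passing 3′UTR clusters 1 to 2. The cause of these changes was not tested. No paired analysis was possible over the clusters as a set, because clusters were called in each replicate apart. Nearly all that overlap have different bounds, so their reads in the 4 samples do not cover the same bases. An Actg1 cluster, chr11:120346911-120346964, had the same bounds in both replicates. Its log2(fold change) was 0.18 (−0.83 to 1.15) in replicate 1 and 0.88 (0.07 to 1.65) in replicate 2, and it was not tested on its own. The values of the 54 overlapping pairs were compared as a description only. Most clusters of Actr2 and Actr3 held a few reads, and the effect of sequences shared with pseudogenes was not tested.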

Other observations

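Genes named here were picked after their values were seen, and over all clusters 4.92% passed in replicate 1 and 13.2% in replicate 2. Pfn2, a profilin, passed in 8 of 12 clusters in each replicate, with a median log2(fold change) of 2.08 and 2.52. Cfl2, a cofilin, passed in 8 of 11 clusters in replicate 1 and 7 of 8 in replicate 2, with medians of 2.46 and 2.65. Capza3, the capping protein subunit of spermatids, passed in 3 of 3 clusters in replicate 1 and 0 of 3 in replicate 2. Among the germ cell markers, Ddx4, an RNA helicase, passed in 11 of 75 and 7 of 76 clusters, and Acrv1, an acrosomal protein gene, in 5 of 15 and 3 of 8, and both had overlapping passing clusters. Prm1, Prm2, Tnp1 and Tnp2, which package sperm chromatin, passed in none.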
